A study of Mus musculus with 3 samples.

Results

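The phosphoinositide 3-kinase (PI3K) pathway and its brakes were described by 9 genes: Pik3cd, Pik3cg, Pik3r1, Pik3r5, Pik3ip1, Inpp5d, Akt1, Akt2 and Mtor. They were found by GENCODE M21 symbol, and all 9 of them, out of 55536 genes in the tables, were present in the 3 libraries. Polyadenylated RNA came from primary CD4-positive effector memory T cells bearing an alpha-beta receptor, from 1 male C57BL/6J mouse aged 7 months, with no treatment or engineered allele named in the labels. The 3 libraries are technical replicates 1, 2 and 3 of 1 biological replicate and form 1 group, so the series holds no second condition. The SD in each value below is the spread between libraries of 1 mouse, not between mice.

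Class I PI3K adds a phosphate to a membrane lipid after the T cell receptor, CD28, cytokine receptors or chemokine receptors are engaged, and the resulting PIP3 recruits kinases with lipid-binding domains. AKT is the best known of these; it holds FOXO transcription factors out of the nucleus and, through the TSC complex and RHEB, raises the activity of the kinase mTOR. Lipid phosphatases and a transmembrane inhibitor act against the signal, and inherited gain or loss of function in the delta catalytic subunit causes immune disease.

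Total gene counts were 16251564, 14878641 and 14152590 in libraries 1, 2 and 3. All 5 markers of alpha-beta T cells, Cd3e, Cd3g, Trac, Cd4 and Cd5, lay above 100 TPM in every library, where TPM is a length-corrected share of all transcripts. All 5 B cell markers stayed below 1 TPM, with a summed level of 0.86 to 1.68 TPM, and all 4 monocyte and macrophage markers summed to 0.69 to 1.56 TPM. Lists of other cell types each held 1 marker with a mean above 1 TPM or none: Gzma (natural killer cell, 1.22 TPM), Xcr1 (dendritic cell, 1.77 TPM), Hbb-bs (erythroid, 3.90 TPM) and Epcam (epithelium, 5.24 TPM). Trdc, Klra8 and Ppbp, markers of gamma-delta T cells, natural killer cells and platelets, had 0 counts in every library. The part of such cells in the levels below was not tested. Of the CD8 T cell pair, Cd8a was at 0.0433 TPM and Cd8b1 at 4.16 TPM. In bulk RNA, fewer cells of a type and less RNA per cell cannot be told apart.

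Pik3cd, which encodes the p110-delta catalytic subunit of leukocytes, had the highest level of the 9 genes. The gene ENSMUSG00000039936.18 lies on the minus strand at chr4:149649168-149702571 (mm10, as are all positions here). Its level was 236 TPM in library 1, 209 TPM in library 2 and 233 TPM in library 3, or 226 ± 14.6 TPM (SD, n = 3 libraries), from 24812 estimated counts in all. All libraries placed it above every value of the other 8 genes, and its mean ranked 661 among protein-coding genes.

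Pik3cg encodes p110-gamma, the catalytic subunit that G protein-coupled receptors activate. It lies at chr12:32173473-32208659 on the minus strand (ENSMUSG00000020573.17). The 3 libraries gave 21.8, 18.7 and 19.2 TPM, a mean of 19.9 ± 1.63 TPM (SD, n = 3). The ratio of Pik3cd to Pik3cg in TPM was 10.8, 11.2 and 12.1 in libraries 1, 2 and 3, or 3.51 ± 0.08 as a log2 ratio (SD, n = 3). The groups of values for these 2 catalytic subunits were therefore far apart in every library. Of the remaining class I subunits, Pik3ca (p110-alpha) stood at 33.2 ± 2.48 TPM, above Pik3cg, and Pik3cb (p110-beta) at 10.02 ± 2.50 TPM (SD, n = 3).

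The genes of the regulatory subunits, Pik3r1 and Pik3r5, were at similar levels in TPM of all their transcript models, with overlapping ranges. Models annotated as protein-coding held 61.0% of the Pik3r1 TPM and 72.6% of the Pik3r5 TPM, so the similarity is of whole-gene levels. Pik3r1 encodes p85-alpha and its shorter forms, which hold and stabilise p110-alpha, p110-beta and p110-delta; it lies at chr13:101680563-101768217 on the minus strand (ENSMUSG00000041417.15). Its level was 103.6, 100.6 and 107.1 TPM in libraries 1, 2 and 3, the smallest relative spread of the 9 genes (103.8 ± 3.26 TPM, SD, n = 3). Pik3r5 encodes p101, the subunit that couples p110-gamma to G protein beta-gamma dimers, at chr11:68432121-68497849 on the plus strand (ENSMUSG00000020901.13). It reached 119, 99.7 and 115 TPM, with the lowest value in library 2 (111 ± 10.4 TPM, SD, n = 3). The ranges of the 2 genes overlapped, and their log2 TPM ratio, Pik3r1 to Pik3r5, was -0.20, 0.01 and -0.11 in libraries 1, 2 and 3, so the sign was not the same in every library.

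Set against its own catalytic partner, Pik3r5 was 5.60 ± 0.346 times the level of Pik3cg in TPM (SD, n = 3). Pik3r6, which encodes the alternative p110-gamma partner p84, had a mean of 0.577 TPM from 18 counts in all. Pik3cd was 2.18 ± 0.0973 times the level of Pik3r1. Pik3r2 (p85-beta) stood at 13.2 ± 1.20 TPM, and Pik3r3 (p55-gamma) at 0.447 TPM.

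The 2 brakes among the 9 genes differed in level in every library. Inpp5d encodes SHIP1, a phosphatase of blood cells that removes the 5-phosphate of PIP3, and lies at chr1:87620312-87720507 on the plus strand (ENSMUSG00000026288.14). Its level was 175, 150 and 166 TPM in libraries 1, 2 and 3 (164 ± 12.5 TPM, SD, n = 3), next in order after Pik3cd and not overlapping the gene on either side of it in that order. Pik3ip1 encodes a transmembrane protein that binds p110 and inhibits it, at chr11:3330401-3342971 on the plus strand (ENSMUSG00000034614.14). It reached 61.9, 66.2 and 47.8 TPM (58.7 ± 9.62 TPM, SD, n = 3), with library 3 lowest. The noncoding gene Gm12592 lies on the opposite strand, shares 91 exonic bases with Pik3ip1 and had 0.603 TPM. The ratio of Inpp5d to Pik3ip1 was 2.82, 2.26 and 3.46 in libraries 1, 2 and 3.

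Akt1 and Akt2, the kinases that PIP3 brings to the membrane, differed in level in every library. Akt1 lies at chr12:112653821-112674884 on the minus strand (ENSMUSG00000001729.14) and had 109, 115 and 105 TPM in libraries 1, 2 and 3 (109.6 ± 5.01 TPM, SD, n = 3). Akt2 lies at chr7:27591552-27640826 on the plus strand (ENSMUSG00000004056.15) and had 74.8, 86.9 and 75.1 TPM (78.9 ± 6.92 TPM, SD, n = 3). Both genes were highest in library 2, and their ranges did not overlap.

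Mtor, the kinase shared by the complexes mTORC1 and mTORC2, was the lowest of the 9 genes. It lies at chr4:148448611-148557683 on the plus strand (ENSMUSG00000028991.15), and its level was 11.95, 11.02 and 15.01 TPM in libraries 1, 2 and 3 (12.7 ± 2.09 TPM, SD, n = 3). Its partners were higher: Rptor, which defines mTORC1, was 1.94 ± 0.141 times and Rictor, which defines mTORC2, 7.68 ± 1.29 times the level of Mtor in TPM. TPM and counts ordered the libraries differently for Mtor. The estimated counts were 672, 387 and 477, which placed library 1 highest, whereas TPM placed library 3 highest. The effective length that divides the counts was 5648, 3969 and 3613 bases in libraries 1, 2 and 3, since it follows the estimated mix of Mtor transcripts.

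**Figure D1:**
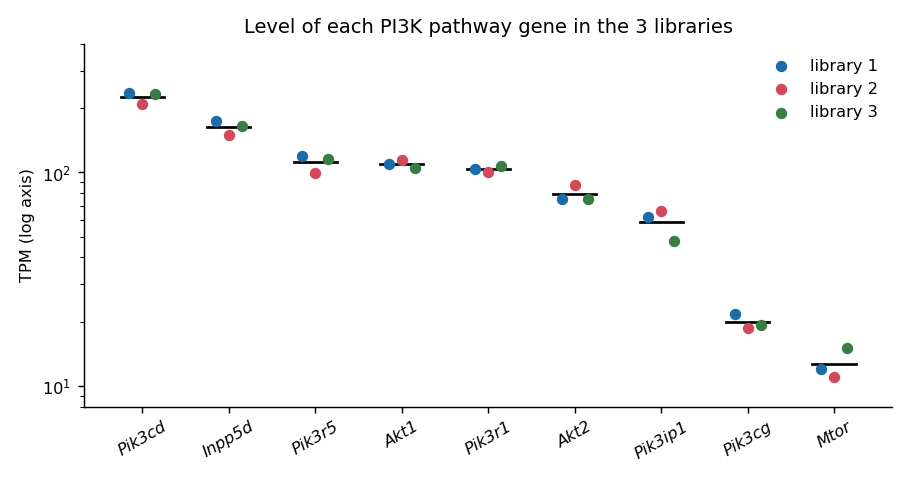
Level of each of the 9 genes in TPM (log axis), with 1 point per library and a line at the mean of the 3 libraries. Pik3cd lies highest at 226 TPM and Mtor lowest at 12.7 TPM. Among neighbours in the order, only Pik3r5 with Akt1 and Akt1 with Pik3r1 have overlapping ranges.

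In order of mean TPM the genes ran Pik3cd, Inpp5d, Pik3r5, Akt1, Pik3r1, Akt2, Pik3ip1, Pik3cg and Mtor. Of the 8 neighbouring pairs, Pik3r5 with Akt1 and Akt1 with Pik3r1 had overlapping ranges and did not differ beyond their spread. The other 6 pairs did not overlap. The median of the 9 means was 103.8 TPM, beside 25.5 TPM for the 10518 protein-coding genes with a mean of at least 1 TPM. These medians are descriptions, since the 9 genes were chosen with earlier results of these data known. The coefficient of variation between libraries ran from 3.14% for Pik3r1 to 16.5% for Mtor, and 6 of the 9 genes lay under the median of 8.83% for the 7544 protein-coding genes with a mean of at least 10 TPM.

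A wider set of 84 genes in 11 lists by role, which includes the 9, placed them in the pathway. The 9 genes and the lists were chosen with earlier results of these data known, so the shares below are descriptions. At least 10 TPM in every library was reached by 56 of the 84 genes, by 47 of the 75 outside the 9, and by all 9, beside 32.9% of all protein-coding genes. Among class I catalytic subunits 3 of 4 reached it, and among class I regulatory subunits 3 of 5. The class II and III enzymes, which make other phosphoinositides, gave 3 of 5: Pik3c3 (35.9 TPM), Pik3c2a (22.7 TPM) and Pik3r4 (22.5 TPM), whereas Pik3c2b and Pik3c2g had means of 0.683 and 0.330 TPM. Adaptors that recruit PI3K to receptors were the list with the lowest median, 3.69 TPM. Gab3 (32.8 TPM) and Pik3ap1 (18.7 TPM) passed 10 TPM, Irs2 had 7.31 TPM, and Gab1, Gab2 and Irs1 had 7, 3 and 15.4 counts in all.

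Of the 14 brakes, 9 reached 10 TPM in every library. The highest was Inpp4b, which removes the 4-phosphate of the lipid PI(3,4)P2, at 165 ± 3.93 TPM (SD, n = 3). This was close to Inpp5d, and the ranges of the pair overlapped. Dok2, an adaptor that dampens receptor signalling, had 119 ± 18.5 TPM. Phlpp2, a phosphatase of AKT, was the only brake with a mean below 1 TPM (0.843 TPM).

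Downstream of the lipid, 8 of 10 kinases reached 10 TPM, Akt1 and Akt2 among them. In the list of mTOR complexes 7 of 11 genes reached 10 TPM, and Mtor ranked 7 of 11 by mean. Mapkap1 (96.8 TPM) and Rictor (95.5 TPM), both of mTORC2, led the list, and Rptor had 24.4 TPM. Prr5l, Deptor and Prr5 had 0.363, 0.337 and 0.257 TPM, and Deptor had 0 counts in library 2, where 3 counts would be 0.202 CPM (counts scaled to the library total).

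The branch that links AKT to mTOR held 3 of 4 genes at 10 TPM: Rheb, the GTPase that activates mTORC1, at 216 ± 4.63 TPM, Tsc2 at 32.7 TPM and Tsc1 at 24.9 TPM. Nutrient and stress inputs gave 11 of 12 genes, led by Lamtor1 (65.8 TPM), Nprl2 (46.9 TPM) and Rragc (45.5 TPM). Of the translation genes, 2 of 4 passed, Rps6 at 445 ± 70.1 TPM and Eif4e at 223 ± 22.3 TPM, and Eif4ebp2 had 8.29 TPM. The count of Rps6 carried an assignment uncertainty of up to 4.85%, against at most 0.158% for the counts of the 9 genes, so its count is less certain by this measure.

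Among FOXO factors and genes that they are known to activate, 5 of 9 reached 10 TPM. The 3 highest were Il7r, the receptor for interleukin 7, at 823 ± 15.5 TPM, Klf2, a transcription factor of quiescent T cells, at 722 ± 29.7 TPM, and S1pr1, the receptor for exit from lymph nodes, at 695 ± 38.2 TPM. Foxo1 had 45.9 ± 3.80 TPM, and Foxo6 had 0 counts in every library, which allows up to 0.185, 0.202 and 0.212 CPM in libraries 1, 2 and 3. Ccr7, a receptor for homing to lymph nodes, was at 239 ± 10.2 TPM (SD, n = 3). Pik3cb, Foxo1 and Ccr7 were named after their values were seen.

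**Figure D2:**
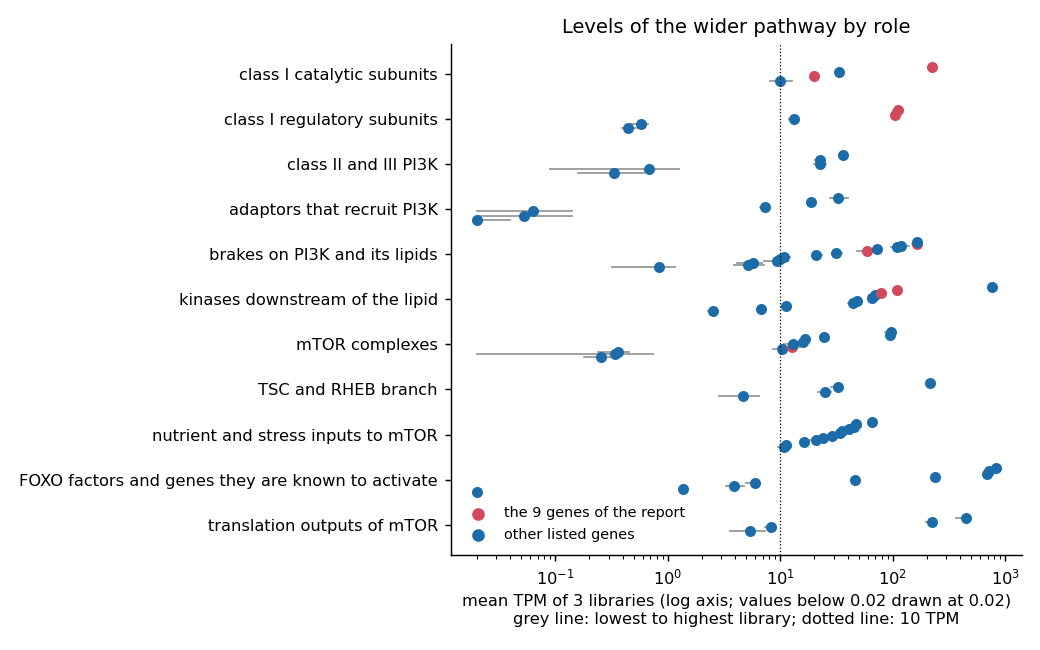
Mean TPM of the 84 listed genes by role (log axis), with the 9 genes in red, a grey line from the lowest to the highest library and a dotted line at 10 TPM. All 9 lie to the right of 10 TPM, and the list of adaptors has the lowest median, 3.69 TPM.

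Pik3r1 has transcripts that encode proteins of different length. Its long transcript Pik3r1-202 encodes p85-alpha in 724 codons. The short forms replace the start of that protein, its SH3 and BCR homology regions, by a short first coding exon. Pik3r1-201 encodes p55-alpha in 454 codons, and the partial model Pik3r1-204 starts with the first coding exon of p50-alpha. The 3 are shown at their join into the same exon, chr13:101690481-101690583 on the minus strand, because this is where their coding sequences part. Capitals mark coding bases before the shared exon (for Pik3r1-202 the last 60 of 916, for Pik3r1-201 all 106 and for Pik3r1-204 all 16), and lower case marks the start of the shared exon, from the GENCODE M21 transcripts.
Pik3r1-202: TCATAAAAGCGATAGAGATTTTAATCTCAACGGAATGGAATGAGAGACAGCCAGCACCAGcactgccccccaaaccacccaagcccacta
Pik3r1-201: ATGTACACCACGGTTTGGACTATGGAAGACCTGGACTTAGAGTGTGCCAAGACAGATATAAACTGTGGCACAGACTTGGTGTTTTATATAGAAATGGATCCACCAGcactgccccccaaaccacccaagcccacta
Pik3r1-204: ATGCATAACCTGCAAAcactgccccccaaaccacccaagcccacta
The coding bases before the join leave a remainder of 1 on division by 3 in each, so all 3 enter the shared exon in the same frame. That exon is exon 8 of 16 in Pik3r1-202 and exon 2 of 10 in Pik3r1-201.

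Per length, the p55-alpha transcript was above the p85-alpha transcript in every library. Pik3r1-201 had 44.2, 40.8 and 35.6 TPM in libraries 1, 2 and 3, and Pik3r1-202 had 15.4, 14.2 and 18.3 TPM. As shares of the gene's TPM these were 38.8% ± 4.91 and 15.4% ± 1.56 (SD, n = 3). As shares of its estimated counts they were 41.8% ± 5.69 and 40.6% ± 3.42, since the p85-alpha model is 7113 bases long and the p55-alpha model 2923 bases. By counts Pik3r1-201 led in libraries 1 and 2 (1264 against 1087, and 1037 against 886) and Pik3r1-202 in library 3 (1138 against 901). The deposited posterior SD of these counts, the uncertainty of dividing reads among transcripts, was 32.9 to 40.2 counts.

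Models with a retained intron held much of the rest of Pik3r1. Pik3r1-203, a model of 472 bases, took 24.9% ± 2.86 of the TPM but 3.96% ± 0.595 of the counts, and Pik3r1-206 took 11.8% ± 2.55 of the TPM and 11.7% ± 2.24 of the counts (SD, n = 3). The first exon of Pik3r1-203 is chr13:101701711-101702104. The p50-alpha model Pik3r1-204 took 5.13% ± 1.00 of the TPM from 72.8 counts in all.

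The long and the p55-alpha transcript start 75587 bases apart, and their upstream sequences differ in base composition. The 250 bases before each start are given on the minus strand with each CG in capitals (RefSeq start windows on GRCm38.p6). The first, chr13:101768218-101768467, precedes Pik3r1-202.
Pik3r1-202 upstream: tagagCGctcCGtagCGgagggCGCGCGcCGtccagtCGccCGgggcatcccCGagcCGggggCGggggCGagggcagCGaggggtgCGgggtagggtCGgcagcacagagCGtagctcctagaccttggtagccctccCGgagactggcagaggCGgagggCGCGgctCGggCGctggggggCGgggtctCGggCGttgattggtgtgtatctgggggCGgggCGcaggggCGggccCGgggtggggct
The second, chr13:101692631-101692880, precedes Pik3r1-201.
Pik3r1-201 upstream: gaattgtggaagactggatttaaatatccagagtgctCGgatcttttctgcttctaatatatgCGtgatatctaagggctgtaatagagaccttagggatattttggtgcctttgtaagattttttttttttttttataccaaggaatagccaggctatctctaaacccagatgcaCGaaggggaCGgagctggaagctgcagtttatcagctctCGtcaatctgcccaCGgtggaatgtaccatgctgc
The first holds 30 CG pairs at 76.4% G and C, and the second 6 at 42.4%. In windows of 300 bases, which add 50 bases after the start, the median over all 32851 RefSeq windows was 7 CG pairs. The 9 genes had 17 windows, some of them overlapping, and GGGCGG was found on either strand in 7 of the 17, beside 35.7% of all windows. TATAAA was found in 1, that of Pik3r1-201, beside 13.6% of all windows. GTAAACA, the core letters of FOXO sites, was in 2 (3.65% of all windows), those of Pik3cg-202 and Akt1-208. These models took 5.96% and 0.387% of their gene's TPM, and the windows of the leading models Pik3cg-201 and Akt1-201 had no match. CCGGAAGT was in 1 (3.89%), that of Mtor. These matches are descriptions of letters and not sites.

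Mtor had 2 coding models, and the leader depended on the library and on the scale. Mtor-202 is the full-length kinase of 2549 codons, and Mtor-201 is a model of 256 codons that reads through the end of exon 5 and stops in the intron. They are shown from the same 30 bases of exon 5, which starts at chr4:148454552 and is spliced after chr4:148454752, because the models part at this point. Capitals mark the next 63 coding bases.
Mtor-202: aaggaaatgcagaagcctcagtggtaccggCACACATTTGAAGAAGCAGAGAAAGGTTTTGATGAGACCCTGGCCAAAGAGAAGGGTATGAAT
Mtor-201: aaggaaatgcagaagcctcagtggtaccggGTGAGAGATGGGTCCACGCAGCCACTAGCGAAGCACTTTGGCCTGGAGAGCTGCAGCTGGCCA
Mtor-202 had 7.42, 4.41 and 5.24 TPM in libraries 1, 2 and 3, and Mtor-201 had 4.53, 6.04 and 8.99 TPM. The full-length model was thus the higher in library 1 and the short model in libraries 2 and 3. By counts the order was the same in every library: Mtor-202 held 629, 332 and 392 counts and Mtor-201 held 43.0, 51.0 and 75.4. As shares, Mtor-201 took 50.9% ± 11.5 of the TPM and 11.8% ± 4.85 of the counts, and Mtor-202 45.7% ± 14.5 and 87.2% ± 5.81 (SD, n = 3). The higher TPM of Mtor in library 3 rested on the short model, since the full-length model was highest in library 1.

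**Figure D3:**
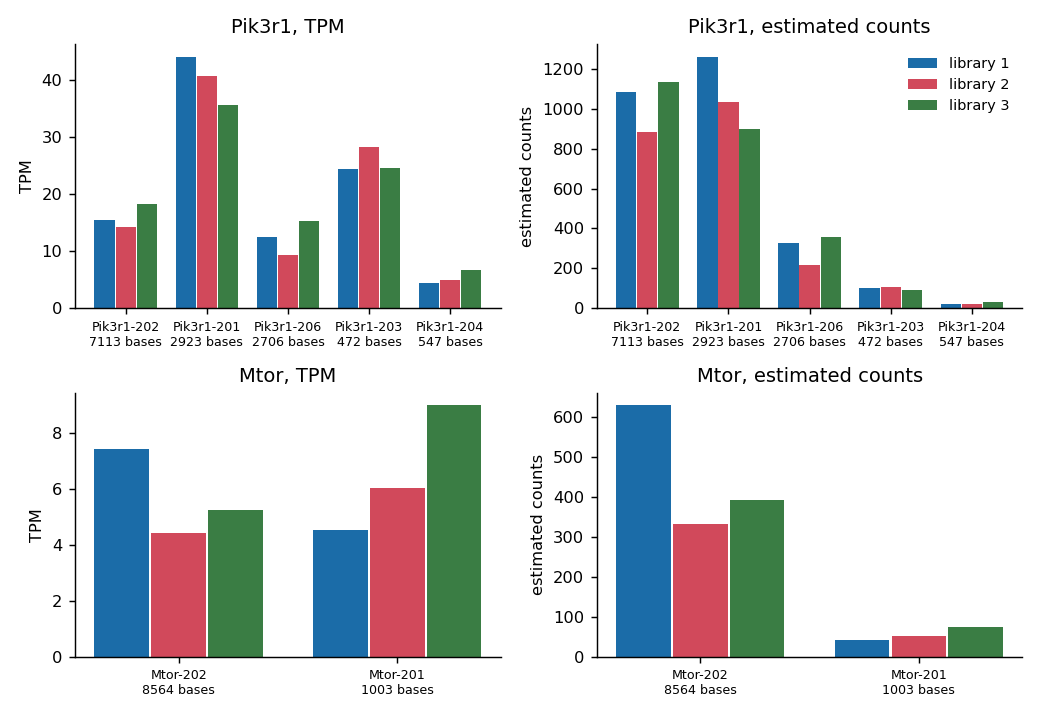
TPM (left) and estimated counts (right) of the Pik3r1 and Mtor transcripts in each library, with the model length under each name. Mtor-201 holds 4.53 to 8.99 TPM but 43.0 to 75.4 counts, and Pik3r1-201 and Pik3r1-202 are close in counts while Pik3r1-201 is higher in TPM.

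Pik3cd divided its reads among full-length coding models with different first exons. Pik3cd-214, Pik3cd-201 and Pik3cd-206 took 32.3% ± 1.77, 26.7% ± 3.34 and 16.6% ± 3.12 of the TPM (SD, n = 3) and encode 1047, 1045 and 1040 codons. Their first exons are chr4:149674076-149674194, chr4:149698555-149698698 and chr4:149701503-149701590. Pik3cd-214 and Pik3cd-201 share 3132 coding bases, of 3141 and 3135, so each has coding bases that the other lacks. Pik3cd-214 carries 9 more bases than Pik3cd-201 at the start of its exon 13, at chr4:149655249-149655257 on the minus strand. The junctions are given with these bases, or the first base after the junction, in capitals.
Pik3cd-214: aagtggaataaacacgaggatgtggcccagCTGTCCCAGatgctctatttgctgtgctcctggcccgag
Pik3cd-201: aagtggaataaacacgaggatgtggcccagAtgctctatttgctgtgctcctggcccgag
The split between them is uncertain: the posterior SD of the 3 transcript counts was 284 to 449 counts, on counts of 1293 to 3527. By counts Pik3cd-214 led in libraries 1 and 3 and Pik3cd-201 in library 2 (2735 against 2685).

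Inpp5d showed a similar small difference between its leading full-length models. Inpp5d-210 encodes 1191 codons and Inpp5d-201 1190 codons, and they differ in coding sequence by 3 bases at the start of exon 4, chr1:87667889-87667891, in capitals here.
Inpp5d-210: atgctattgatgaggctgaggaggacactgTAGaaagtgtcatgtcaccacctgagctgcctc
Inpp5d-201: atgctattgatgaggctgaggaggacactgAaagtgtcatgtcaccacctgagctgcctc
The longer model held 69.4% ± 4.39 of the counts and the shorter 17.9% ± 2.56 (SD, n = 3), with a posterior SD of 240 to 357 counts on each estimate. By TPM, Inpp5d-210 led with 42.6% ± 0.435, and the retained intron model Inpp5d-203 of 364 bases came next with 22.0% ± 2.86, although it held 2.32% ± 0.398 of the counts.

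The other genes had a clear leading coding model. Akt1-201 took 92.2% ± 3.86 of the Akt1 TPM, and the next, the retained intron model Akt1-209, took 3.02% ± 1.04. Pik3r5-201 took 72.6% ± 2.87 of the Pik3r5 TPM and the noncoding Pik3r5-204 21.7% ± 2.46. Pik3ip1-201 took 52.8% ± 7.62 of the Pik3ip1 TPM, ahead of the retained intron model Pik3ip1-208 with 11.6% ± 4.29 (SD, n = 3).

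Akt2 and Pik3cg had leading models that share their coding sequence. Akt2-201 (57.1% ± 4.79 of the TPM) and Akt2-214 (26.5% ± 3.49) have the same 1443 coding bases and differ in first exon, chr7:27605858-27605937 and chr7:27591746-27591879. Pik3cg-201 took 49.8% ± 2.95, and Pik3cg-204, which has the same 3306 coding bases and is annotated as a target of nonsense-mediated decay, took 29.6% ± 11.8 (SD, n = 3). Library 2 was lowest for Pik3cg-204, with 16.0% of the TPM against 38.0% and 34.6% in libraries 1 and 3. It was highest for Pik3cg-207, which has the same coding bases, with 20.9% against 1.41% and 6.43%. The split between them is uncertain. The posterior SD was 34.0 to 49.9 counts for Pik3cg-204, on counts of 126 to 392. For Pik3cg-207 it was 52.1 to 58.2 counts, on counts of 14.05 to 160.

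**Figure D4:**
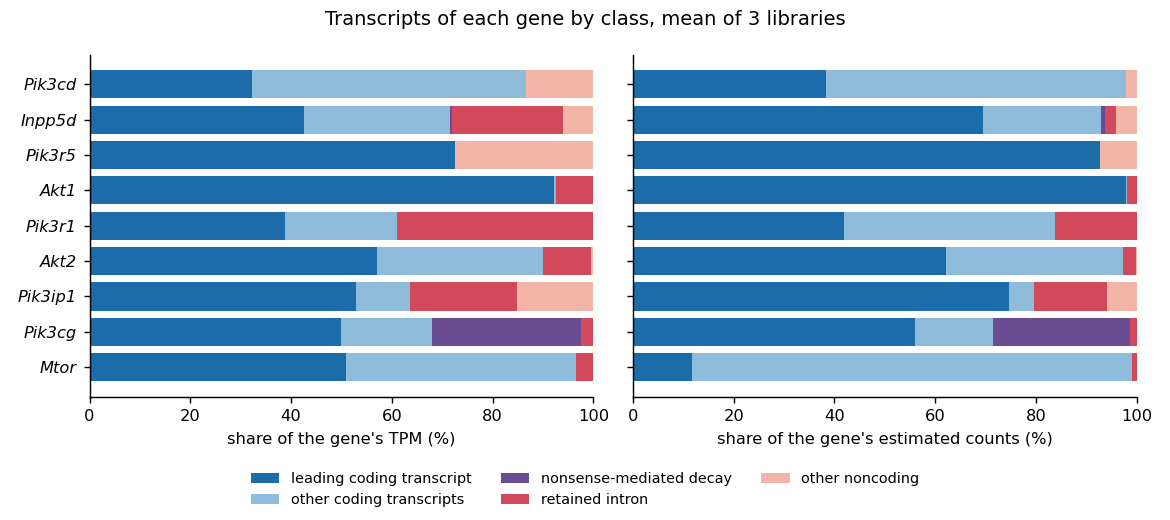
Mean share of each gene's TPM (left) and of its estimated counts (right) by transcript class, over the 3 libraries. The retained intron share of Pik3r1 is 39.02% by TPM and 16.2% by counts, and the leading coding model of Mtor by TPM, Mtor-201, takes 50.9% on the left and 11.8% on the right.

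Models annotated as protein-coding held from 61.0% ± 0.707 of the TPM in Pik3r1 to 96.5% ± 3.01 in Mtor (SD, n = 3). They include the 256-codon Mtor-201, but not Pik3cg-204, which shares the coding bases of Pik3cg-201 and held 27.1% of the Pik3cg counts. The median over 7103 protein-coding genes with at least 2 transcripts and 10 TPM was 81.7%. By counts the lowest of the 9 was Pik3cg at 71.5% ± 11.6, and the median over those genes was 91.0%. The leading transcript by TPM was the same in every library for 8 of the 9 genes, all but Mtor, beside 83.0% of those genes.

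The libraries were compared gene by gene with a chi-square test of homogeneity on estimated counts, which asks whether 3 libraries of the same cells differ by more than counting noise. All 9 genes were called at an adjusted p of 0.05, beside 57.2% of the 13949 genes tested. Among the 6352 genes with 1000 to 30000 counts, a range that holds all 9, the share called was 69.2%. The ratio of the highest to the lowest library, in CPM scaled by TMM (edgeR's adjusted library sizes), ran from 1.07 for Inpp5d to 1.55 for Mtor, and the median of those 6352 genes was 1.17. For Mtor the scaled CPM was 41.4, 26.6 and 32.9 in libraries 1, 2 and 3 (chi-square test, Benjamini-Hochberg adjusted p = 1.88e-10). For Inpp5d it was 312, 295 and 290 (adjusted p = 0.00352 by the same test). Adjusted p in the other 7 genes ran from 9.34e-09 for Pik3r5 to 0.00122 for Pik3ip1.

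Library 2 was the lowest for Pik3cd, Pik3cg, Pik3r1, Pik3r5 and Mtor and the highest for Akt1, Akt2 and Pik3ip1 in scaled CPM. In a second deposited gene table, counted on an earlier annotation, Pik3ip1 was instead highest in library 1, with scaled CPM of 79.3, 73.0 and 60.9 in libraries 1, 2 and 3. From the estimated counts as scaled CPM, with a small constant added, library 2 was set against the mean of libraries 1 and 3. The log2 difference ran from -0.47 for Mtor to 0.22 for Akt2. By gene length the median of this difference lay between -0.03 and 0.11 in 5 length classes of genes above a minimum count. The part of length in the members' differences was not tested. With the chi-square divided by its median inflation over all genes, 4.45% of genes were called and 0 of the 9. In this divided chi-square test the adjusted p of the 9 ran from 0.264 for Mtor to 0.951 for Inpp5d. Without library 2 the chi-square test called 27.5% of 12904 genes and 4 of the 9, Pik3cg, Pik3r5, Inpp5d and Mtor. Without library 3 it called 42.3% of 12471 genes and 8 of the 9, all but Pik3ip1, and without library 1 it called 43.8% of 12591 genes and 7 of the 9, all but Pik3cg and Inpp5d. All 9 were called with DESeq2 size factors (57.3% of genes), with total counts (54.5%), and with a minimum of 10 counts (49.3%), 100 counts (61.9%) or 1 count (25.9%).

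**Figure D5:**
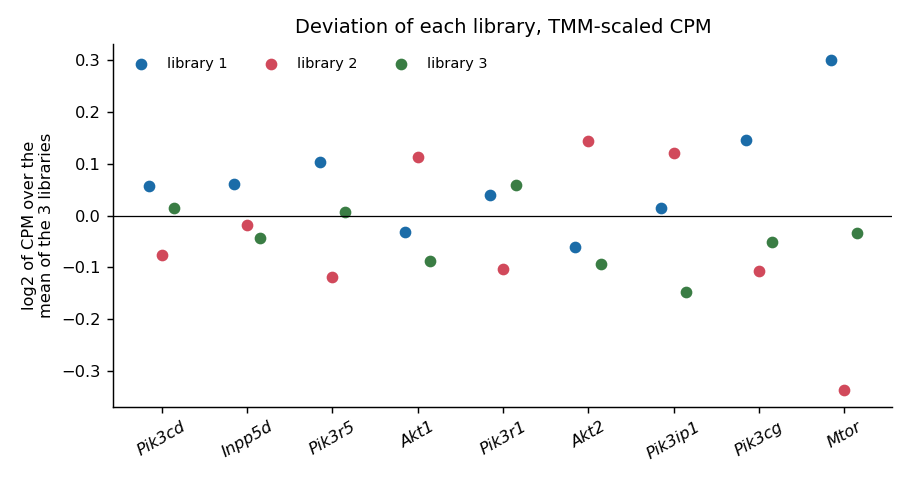
Deviation of each library from the mean of the 3, as log2 of TMM-scaled CPM, for each of the 9 genes in order of level. Mtor spreads most, from 26.6 CPM in library 2 to 41.4 CPM in library 1, and the Akt1, Akt2 and Pik3ip1 points of library 2 lie above those of the other libraries.

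The second gene table called 4 of the 9 genes by the same test, Pik3cg, Pik3r5, Pik3ip1 and Mtor, beside 27.2% of its 10291 genes. Its counts were between 20.3% (Akt2) and 84.8% (Mtor) of the estimated counts, beside a median of 49.1% over 6343 genes. For Akt1 the share was 46.0%, so the log2 ratio of Akt1 to Akt2, 0.48 ± 0.07 in TPM (SD, n = 3), became 1.57 in CPM of that table, which is not corrected for length.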

How the data were processed

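Polyadenylated RNA of effector memory CD4 T cells from 1 male mouse was read in 3 libraries, which the labels call technical replicates, so they form 1 group and no comparison between conditions was made. The authors deposited, per the file headers, gene and transcript tables with expected counts (reads of ambiguous origin are split by estimate), TPM, posterior mean counts and TPM, posterior SDs, and the percent of a gene's TPM in each transcript. They also deposited a second gene table of whole-number counts without a header. Per the labels the build is mm10; per the sample descriptions and identifiers the annotations are GENCODE M21 and, for the second table, M4. No source used here gives the aligner, quantifier, kit, strand setting or cell sort, so sense and antisense reads of overlapping genes cannot be told apart.

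Levels are the deposited TPM, as mean ± SD over libraries. For the library comparison, rounded expected counts of each gene with 30 or more over the libraries entered a chi-square test for equal shares, given TMM library sizes, and p-values were adjusted over the whole table (Benjamini-Hochberg, 0.05). This test was run on simulated counts with counting noise only, whereas the median inflation of the chi-square in these data was 6.45. The simulation therefore cannot show how the test behaves at such spread. The p-values of the test measure only the spread between libraries of 1 mouse. A count of 0 allows up to 3 counts, which covers counting error only. Neighbours in the order of levels were said to differ where their ranges did not overlap.

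Named genes were the 9 members, the 3 highest of each of 11 pathway lists by mean TPM, every listed gene under 1 TPM, the 2 leading transcripts of each member, and Pik3r1 transcripts of at least 5% of its TPM. Some genes that this rule covers are not reported here. The members and lists were chosen with earlier results of these data known. Sequences came from the GENCODE M21 transcripts and RefSeq start windows on GRCm38.p6, and motifs were searched on both strands. Other settings were posterior mean TPM, a pseudocount of 1, other detection limits, size factors of DESeq2 or total counts in place of TMM, other minimum counts, the inflation-divided test, the second table, leaving out each library and, added after seeing the data, transcript shares by counts. Python 3.11.15, scipy 1.17.1, pandas 2.3.3, R 4.3.3, edgeR 4.0.16 and DESeq2 1.42.0 were used.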

Additional observations from a re-analysis of the deposited data

How the results depend on the processing

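With posterior mean TPM 7 of the 9 levels moved by more than 1 SD, all downward (Pik3cd to 196 TPM), and Akt1 (97.0 TPM) passed Pik3r5 (95.9 TPM). Akt1 also passed Pik3r5 in deposited TPM without library 1 (109.8 against 107.5) and without library 3 (112 against 109.5), and their ranges overlap with all libraries. In CPM of the second table, which is not per length, the log2 ratios became 2.55 for Pik3cd to Pik3cg, -0.61 for Pik3r1 to Pik3r5, 1.57 for Akt1 to Akt2 and 2.96 for Inpp5d to Pik3ip1; the cause was not tested. At a limit of 100 TPM, 14 of the 84 listed genes passed in every library, beside 7.27% of all protein-coding genes. The library test called 621 genes and 0 members when divided by its inflation, and 2804 genes and 4 members in the second table. Leaving out 1 library gave 3546 to 5516 genes, 27.5% to 43.8% of those tested, and 4 to 8 members, with fewer libraries in the test. With DESeq2 size factors, total counts and the other count filters all 9 members were called, beside 25.9% to 61.9% of genes. The leading shares moved most for Mtor-201, from 50.9% of TPM to 11.8% of counts; it did not lead by counts, nor by TPM without library 3 (46.4%). The mean log2 ratio of each of the 4 pairs kept its sign in these settings. For Pik3r1 to Pik3r5 that mean was -0.10 ± 0.11 (SD, n = 3), and the sign differed between libraries. Depth limits the genes near 0, such as Foxo6, and transcript models with few counts. No paired analysis was possible because all libraries belong to 1 group.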

Other observations

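The second table held different shares of the estimated counts of each gene: 20.3% for Akt2, 36.2% for Pik3ip1, 41.4% for Pik3cd, 43.5% for Pik3r1, 46.0% for Akt1, 48.9% for Pik3r5, 58.8% for Inpp5d, 61.9% for Pik3cg and 84.8% for Mtor. The quartiles over 6343 genes with at least 1000 estimated counts were 32.1% and 65.0%. Akt2 lay below the lower quartile and Mtor above the upper, and no source used here says how that table was counted.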
